A study of Mus musculus with 168 samples.

Results

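Hox genes encode the homeodomain transcription factors that assign position along the head-to-tail axis. A list of 38 mouse Hox genes was followed here through 6 populations of neurons laid out along that axis. The members are listed by name as 1 gene family, a list drawn up with earlier results of these data known. Of the 38, 37 have a value among the 39410 genes of the expression table. Hoxd4 has none there and enters the promoter search alone. The populations were red nucleus neurons and oculomotor and trochlear (ocular) motor neurons of the midbrain, facial motor neurons of the pons, vagus and hypoglossal motor neurons of the medulla, and lumbar spinal motor neurons. They were cut out by laser capture, at about 150 cells per tube, from mice at postnatal days 2, 5 and 10. Mice labelled SMA came from the delta7 line that models spinal muscular atrophy, with the genotype Smn-/-, SMN2+/+, SMNΔ7+/+. Littermate controls were Smn+/+, SMN2+/+, SMNΔ7+/+, so both groups carried the human SMN2 and SMNΔ7 transgenes, and the controls were not free of transgenes. The data comprised 168 libraries from 34 mice, 15 control and 19 SMA. After averaging the libraries that shared a mouse and a population these gave 160 samples, 72 control and 88 SMA, in 36 groups of 3 to 7 mice. All values are RPKM, reads per kilobase of transcript scaled to the library's mapped reads, a per-length level that can be compared between genes.

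In vertebrates the Hox genes lie in 4 clusters, and their order within a cluster follows the order in which they are expressed from hindbrain to tail. Genes at the same place in different clusters form a numbered paralog group: low numbers act in the hindbrain, middle numbers in the neck and chest part of the cord, and high numbers in the lumbar cord, while the midbrain is free of Hox expression. In motor neurons, Hox proteins working with PBX and MEIS cofactors help set the motor column and the muscle a neuron connects to. Groups 1 to 3 are called rostral below, groups 4 to 7 middle, and groups 8 to 13 caudal.

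The recovered depth of the libraries was 0.342 to 16.3 M reads (M, mega), with a median of 5.89 M. At that depth 3 reads corresponded to a median of 0.265 RPKM for Hoxc10 in ocular libraries, so values below about that level are not told apart from 0 in a library of usual depth. In the shallowest facial library the same limit was 1.09 RPKM and in the shallowest red nucleus library 4.60 RPKM. These limits cover counting error only. The targeted gene, Smn1, was 4.32 to 63.3 RPKM in controls, with a median of 22.8, and 0 to 4.24 RPKM in SMA samples, where it was 0 in 70 of 88. The genotypes did not overlap. The summed level of 6 motor neuron markers (of 7 listed) was 659 to 1829 RPKM in control samples of the 5 motor populations and 29.9 to 100.5 RPKM in the red nucleus. Isl2 was at 0 in red nucleus controls of every age, but also in vagus controls of day 2, and Mnx1 was at 0 at days 5 and 10, as it was in facial and vagus controls of day 10. Because each tube pools many cells, fewer cells expressing a gene and less RNA per cell cannot be told apart in any value below.

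Windows of 250 bases directly upstream of RefSeq transcription starts are shown for Hoxa5, a member present in both medulla and lumbar cord, for Hoxd10, present in the lumbar cord alone, and for Hoxa10, a caudal member with more than 1 start that fell with age. RefSeq (GRCm38.p6) had an entry for 22 of the 38 members, 24 entries in all. Each window runs 5′ to 3′ on the gene's strand. Capitals mark the letters of a CCAAT box (CCAAT, read here as its reverse complement ATTGG) or of a TATA box (TATAAA, read here as TTTATA). Both are common promoter motifs. The windows are Hoxa5 at chr6:52204588-52204837 on the minus strand, Hoxd10 at chr2:74691641-74691890 on the plus strand, the distal Hoxa10 start at chr6:52240855-52241104 and the proximal one at chr6:52234940-52235189, both on the minus strand.
Hoxa5: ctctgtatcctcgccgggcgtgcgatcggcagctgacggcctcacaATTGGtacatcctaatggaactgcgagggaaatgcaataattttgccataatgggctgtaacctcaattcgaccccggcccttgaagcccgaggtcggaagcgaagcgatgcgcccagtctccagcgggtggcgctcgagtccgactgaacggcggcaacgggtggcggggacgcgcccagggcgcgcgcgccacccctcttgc
Hoxd10: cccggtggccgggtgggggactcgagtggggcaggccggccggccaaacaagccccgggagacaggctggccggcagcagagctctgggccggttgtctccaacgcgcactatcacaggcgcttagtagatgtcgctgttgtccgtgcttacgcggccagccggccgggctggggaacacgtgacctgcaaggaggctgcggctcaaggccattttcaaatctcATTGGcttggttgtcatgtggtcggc
Hoxa10, distal start: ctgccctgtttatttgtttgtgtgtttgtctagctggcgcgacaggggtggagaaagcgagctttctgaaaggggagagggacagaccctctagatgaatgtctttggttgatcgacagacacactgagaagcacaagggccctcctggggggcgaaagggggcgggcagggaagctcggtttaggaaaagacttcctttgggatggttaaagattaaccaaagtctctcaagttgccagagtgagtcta
Hoxa10, proximal start: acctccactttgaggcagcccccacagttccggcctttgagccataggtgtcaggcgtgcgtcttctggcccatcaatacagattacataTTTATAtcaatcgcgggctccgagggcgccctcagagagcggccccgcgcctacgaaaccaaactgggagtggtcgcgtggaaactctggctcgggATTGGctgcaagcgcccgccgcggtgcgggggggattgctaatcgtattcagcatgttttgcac

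The CCAAT letters lay at −204 to −200 from the start in Hoxa5, −26 to −22 in Hoxd10 and −64 to −60 at the proximal Hoxa10 start. The proximal window also held the TATA box letters, on the other strand, at −160 to −155. Neither motif was in the distal Hoxa10 window. Counting both strands, CCAAT was in 14 of the 24 member windows, 58.3%, and in 33.8% of all 32851 promoter windows of the same length. TATAAA was in 4 of 24, against 12.4% of all windows. TGATTNAT, a joint HOX and PBX site, was in 2 of 24 (Hoxa2 and Hoxd11) against 2.82%. TGACAG, a MEIS site, was in 2 of 24 (Hoxa2 and Hoxa3) against 15.9%. TTTATG, a site of CDX and posterior HOX proteins, was in 5 of 24 (Hoxa7, Hoxb8, Hoxd3, Hoxd4 and Hoxd11) against 10.8%. These matches describe the letters only.

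Members with a mean of at least 1 RPKM over all control mice of the 3 days are called present below. Along the axis their number was 0 in the red nucleus, 0 in ocular, 4 in facial and 13 in vagus neurons. It was 10 for hypoglossal and 21 for lumbar neurons. The facial count rests on control mouse 14, described below: without it Hoxb3 alone was present there, at 3.16 RPKM, and over all mice left out in turn the count was 1 to 5. No caudal member was present outside the lumbar cord, and 11 were present in it. The summed level over the members was 0.846 ± 0.854 RPKM in red nucleus controls (SD, n = 11) and 1.08 ± 1.09 in ocular controls (SD, n = 12). It was 439.8 ± 149.9 in vagus (SD, n = 11), 123.7 ± 41.0 in hypoglossal (SD, n = 12) and 293.4 ± 30.1 in lumbar controls (SD, n = 13). In facial controls the median was 4.69 RPKM over 13 mice. SMA samples had 0, 0, 2, 13, 10 and 21 members present in the same order of populations.

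**Figure D1:**
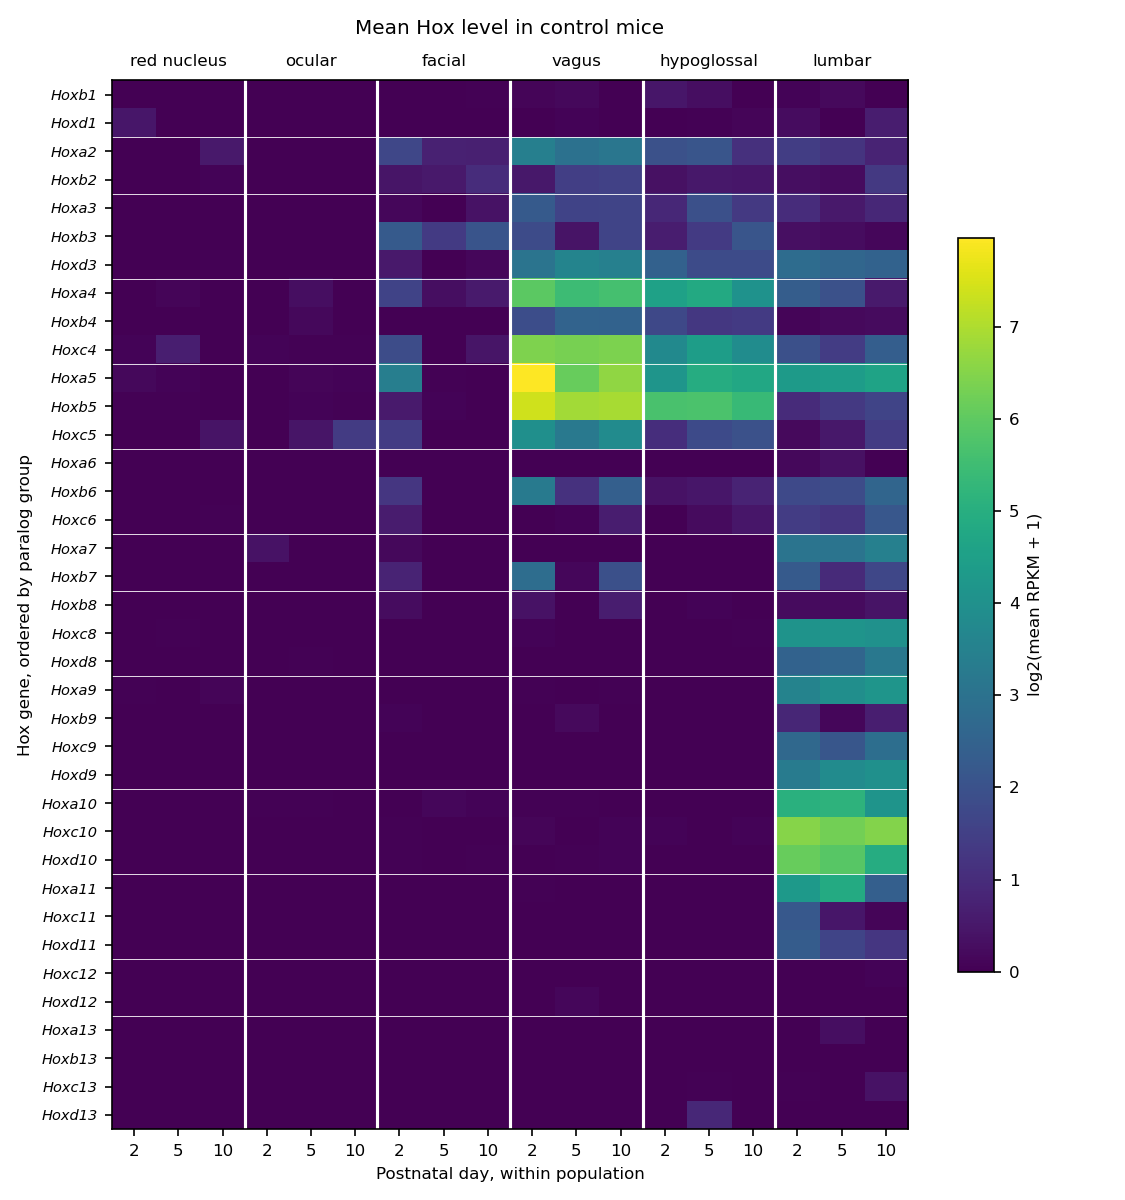
Control means of the 37 measured Hox genes, as log2(RPKM + 1), by population and postnatal day; genes are ordered by paralog group from top to bottom. The red nucleus and ocular columns are near 0, vagus and hypoglossal columns are filled in the rostral and middle groups, and the caudal groups are filled in lumbar columns.

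**Figure D2:**
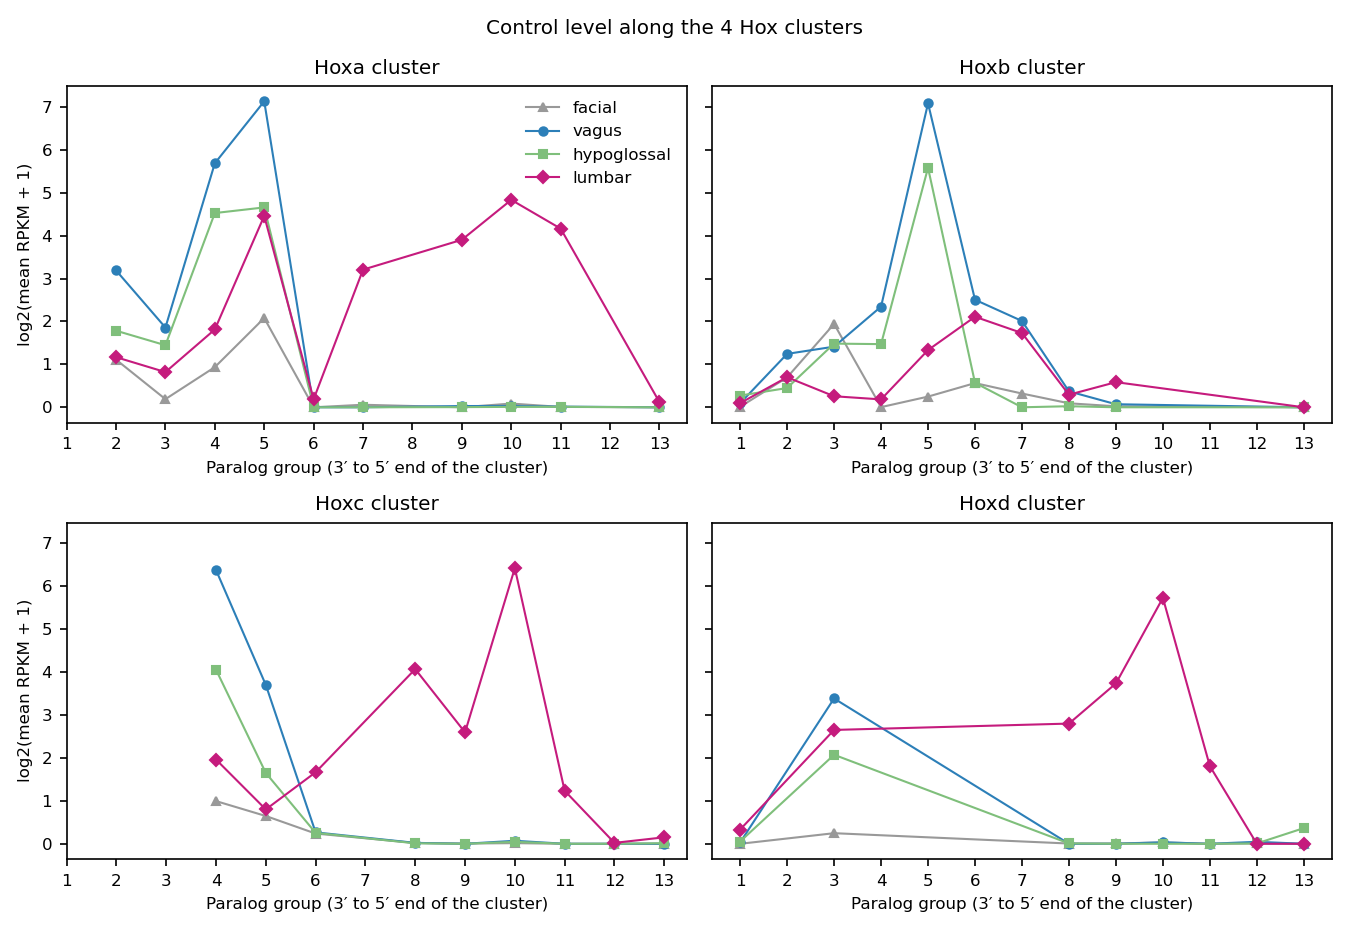
Control level, log2(mean RPKM + 1), against paralog group for each of the 4 Hox clusters, with 1 line for each of facial, vagus, hypoglossal and lumbar neurons. In clusters A, C and D the lumbar line peaks at group 10, at 27.5, 84.95 and 52.1 RPKM.

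Of the 37 measured members, 26 were present in controls of at least 1 population and 11 in none. The latter were Hoxa6, Hoxa13, Hoxb1, Hoxb8, Hoxb9, Hoxb13, Hoxc12, Hoxc13, Hoxd1, Hoxd12 and Hoxd13. Hoxb13 was at 0 in every library. Lumbar neurons held 13 members that were present in no other population, from Hoxc6 and Hoxa7 to Hoxa11, Hoxc11 and Hoxd11, and 6 members, Hoxa2, Hoxa4, Hoxa5, Hoxb5, Hoxc4 and Hoxd3, were present in vagus, hypoglossal and lumbar neurons alike. In the lumbar cord clusters A, C and D each had members present up to group 11 (Hoxa11, Hoxc11 and Hoxd11). The highest caudal member of cluster B, Hoxb9, was not present there and reached at most 1.74 RPKM in a lumbar control.

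Neighbouring populations were compared in controls on log2(RPKM + 1) with limma, two-sided, with Benjamini-Hochberg adjustment over 19621 genes and an adjusted p of 0.05 as the threshold. In all 5 comparisons 28 of the 38 members passed the filter on low values. Those 28 had to be high in at least 1 group to be tested, so the counts below describe the tested members only, and fold changes on this scale understate the change of low genes. The populations come from the same mice, and the comparisons share control samples.

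Between the midbrain populations, ocular minus red nucleus, no member passed, none had an unadjusted p under 0.05, and 16.7% of all tested genes were called. The lowest adjusted p of a member was 0.456. The member median was 0 against 0.029 over all genes. No member was present in either population, so the test had almost nothing to compare on this scale. Nothing is read from this count or median.

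Facial neurons differed from ocular neurons in 3 rostral members at low levels, a share of the tested members near that over all genes. Hoxb3, a gene of hindbrain segments, was 0, 14.6, 0, 1.61 and 2.79 RPKM in the 5 controls of day 2, 0, 0.213, 1.39 and 4.66 at day 5, and 0.598, 9.08, 0 and 3.02 at day 10. It was 0 in all 12 ocular controls, so the populations overlapped through the 4 facial samples at 0. Hoxa2, which patterns the facial and neck arches, was 7.79, 0.321, 0, 1.15 and 1.78 RPKM at day 2, 0, 0.257, 0.814 and 1.57 at day 5, and 0.09, 0.792, 0.336 and 1.25 at day 10. Between ocular and facial neurons 3 of 28 tested members were higher in facial neurons and 0 lower, against 13.4% of all genes called and 8.4% called higher. Hoxb3 was higher by 1.32 (SE 0.35, adjusted p = 0.0045), Hoxa2 by 0.83 (adjusted p = 0.0235) and Hoxb2, its cluster neighbour, by 0.61 (adjusted p = 0.0199) on the log2 scale. The Hoxa2 call was lost when any 1 of control mice 14, 75, 244, 252 and 254 was left out (adjusted p up to 0.0728), the Hoxb2 call for 29, 71, 244 and 254 (up to 0.068) or with quantile normalization, and the Hoxb3 call was not lost by leaving out any mouse. Quantile normalization also moved the share of calls over all genes that were higher in facial neurons from 62.6% to 51.3%.

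The exons of Hoxb3os, a noncoding gene on the opposite strand, overlap those of Hoxb2 and Hoxb3, and the strand setting of the counting is not given in the sources used here, so reads of these genes cannot be told apart. Hoxb3os was 0.244 to 15.7 RPKM in facial controls, with a mean of 9.24 ± 4.04 (SD, n = 13), and 0 to 0.129 in ocular controls. It was above every ocular control in each of the 13 facial controls.

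Facial control mouse 14 at day 2 stood apart from all other rostral libraries. Its middle groups summed to 95.6 RPKM, against a median of 0.211 over the 85 red nucleus, ocular and facial libraries and 4.7 in the next highest facial sample. Hoxa5 was 48.0 RPKM (580 reads) in this mouse and 0 to 0.125 in the other 12 facial controls, and Hoxc4, Hoxa4, Hoxc5 and Hoxb6 were 12.8, 10.1, 8.35 and 6.98. Hoxa5 therefore had the highest facial mean of the 3 control day means, 3.23 RPKM, on 1 sample. Without mouse 14 the Hoxb3 difference from ocular neurons was 1.44 (adjusted p = 0.00287), and the mean of Hoxa5 was 0.0286 RPKM over 12 mice. What the sample holds besides facial neurons was not tested.

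Vagus neurons, whose cell bodies lie in the dorsal medulla and drive the viscera, had the highest mean summed Hox level of the 6 populations, of which the middle members made up 416.0 RPKM and the rostral ones 23.3 RPKM in controls. Hoxa5, a paralog of group 5 with a role in respiratory and neck-level patterning, was 117.4, 376.8 and 253.2 RPKM in the 3 controls of day 2, 66.4, 76.5, 80.7 and 52.3 at day 5, and 49.1, 144.2, 138.6 and 66.7 at day 10. Hoxb5, of the same group, was 128.05, 187.3 and 189.96, then 120.8, 124.8, 105.4 and 111.6, then 60.3, 115.75, 153.9 and 150.3 RPKM. Hoxc4 was steadier, at 69.7, 83.2 and 103, then 97.1, 80.6, 62.6 and 75, then 61.5, 97.2, 90.4 and 83 RPKM. For these 3 genes every vagus control exceeded every facial control, mouse 14 included, although for Hoxa5 by 49.1 against 48.0 RPKM at the closest.

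Of 28 tested members 11 were higher in vagus than in facial neurons and 0 lower, against 22.3% of all genes called and 10.9% called higher. The largest differences were Hoxb5 at 6.86, Hoxa5 at 6.40, Hoxc4 at 5.95 and Hoxa4 at 5.15 on the log2 scale. By paralog group, 8 of 10 tested middle members and 3 of 6 rostral ones (Hoxa2, Hoxa3 and Hoxd3) were higher, and 0 of 12 caudal ones. Those 12 were below 1 RPKM in every vagus and facial control, so nothing is read from their count. The Hoxb7 call (adjusted p = 0.035) was lost when any 1 of 6 control mice was left out. The member median was 0.037 against −0.004 over all genes. It takes in the tested caudal members, near 0 in both populations, so it says little of the rostral and middle members. Hoxb2 and Hoxb3, called between ocular and facial neurons, did not pass between facial and vagus neurons. Exons of Hoxb5 overlap those of Hoxb5os on the opposite strand.

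Hypoglossal neurons, the motor neurons of the tongue, also in the medulla, held 10 of the vagus members, most of them at lower levels. Hoxb5 was the highest member, at 53.8, 50.7, 46.9 and 48.8 RPKM at day 2, 74.7, 33.2, 34.7 and 60.9 at day 5, and 14.6, 37.2, 56.3 and 51.4 at day 10. Hoxa5 was 18.7, 14.8, 7.69 and 25.9, then 61.8, 11, 21.2 and 23.5, then 13.3, 39.6, 31.6 and 22 RPKM. Hoxa4 was 9.02, 22, 38.6 and 20.9, then 29, 17.6, 27.6 and 37.5, then 13.3, 7.61, 24.5 and 17.2 RPKM. The order of the 3 genes differed between mice, and the ranges of Hoxa4 and Hoxa5 overlapped at each age.

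Relative to vagus neurons 11 of 28 tested members were lower and 0 higher, against 21.1% of all genes called and 10.3% called lower. Hoxc4 was lower by −2.46, Hoxa5 by −2.35, Hoxc5 by −2.12 and Hoxa2 by −1.63 on the log2 scale. The 11 comprised 8 of 10 tested middle members and the rostral members Hoxa2, Hoxb2 and Hoxd3. The Hoxb2 call (adjusted p = 0.0335) was lost when any 1 of 6 control mice was left out, with a pseudocount of 0.1 and with array weights, and the Hoxb7 call without control mouse 240 or 253. Hoxa3 and Hoxb3 did not pass, at −0.35 and 0.00. The member median was −0.029 against −0.001 over all genes. This median too takes in tested caudal members near 0 in both populations and says little of the others.

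Lumbar neurons, which drive the hindlimb, were set apart by groups 8 to 13. In these controls groups 10 to 13 summed to 186.6 ± 36.7 RPKM, groups 8 and 9 to 53.77 ± 12.99, groups 4 to 7 to 44.6 ± 8.36 and groups 1 to 3 to 8.38 ± 1.53 (SD, n = 13). Hoxc10, which with its group 10 paralogs specifies limb-level motor neurons, was the highest member, at 74.9, 113.1, 88.7 and 86.3 RPKM at day 2, 66.4, 88.9, 87.2, 62.9 and 72.8 at day 5, and 92, 79.9, 105.5 and 76.4 at day 10. Outside the lumbar cord it was at most 1.55 RPKM in any library. Hoxc8 was 8.99 to 25.9, Hoxa9 8.63 to 18.6 and Hoxd9 3.04 to 19.4 RPKM over the 13 controls.

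Compared with hypoglossal neurons, 17 of 28 tested members were higher in lumbar neurons and 4 lower, against 11.4% of all genes called, 4.88% higher and 6.48% lower. Hoxc10 was higher by 6.37, Hoxd10 by 5.63, Hoxa10 by 4.72 and Hoxc8 by 3.997 on the log2 scale. Each of the 12 tested caudal members passed as higher in lumbar neurons. Among controls they reached 1 RPKM in lumbar samples alone, so they entered the test through these samples and the filter set their direction. The count of 17 is therefore no independent comparison with the share over all genes. Of the middle members Hoxa7, Hoxb6, Hoxb7 and Hoxc6 were higher, and Hoxb5, Hoxa4, Hoxc4 and Hoxb4 were lower, by −4.29, −2.81, −2.07 and −1.21. The filter set the direction of Hoxa7 too. Among controls outside the lumbar cord it reached 1 RPKM only in the ocular sample of mouse 14 at day 2, at 1.26. The member median was 1.07 against −0.005 over all genes.

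Hoxa5 and Hoxb5, both of group 5, parted between these populations. Hoxa5 differed by −0.02 (SE 0.32, adjusted p = 0.992, 95% interval −0.65 to 0.61), with 7.69 to 61.8 RPKM over 12 hypoglossal and 16.6 to 30.9 over 13 lumbar controls. Hoxb5 was 14.6 to 74.7 RPKM in hypoglossal and 0.111 to 3.90 in lumbar controls, without overlap. Exons of Hoxc5 overlap those of Hoxc10 on the same strand, and of Hoxd10 those of Gm28309, so reads assigned to these genes may be shared.

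**Figure D3:**
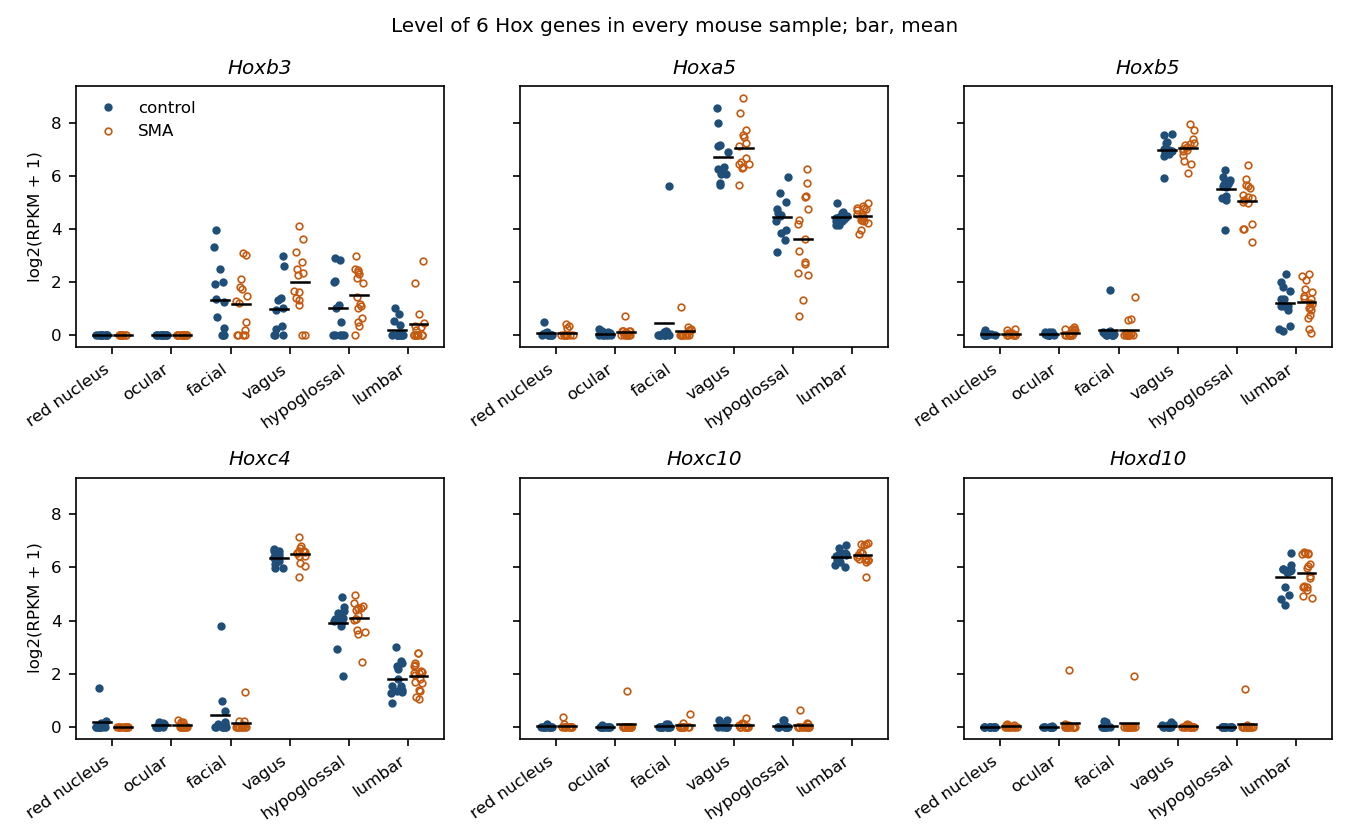
Hoxb3, Hoxa5, Hoxb5, Hoxc4, Hoxc10 and Hoxd10 as log2(RPKM + 1) in every mouse sample by population (filled points control, open points SMA, bar the group mean). Hoxb5 separates vagus and hypoglossal from lumbar samples, and Hoxc10 and Hoxd10 are highest in lumbar samples, with a few low points above 0 in the other populations, up to 3.45 RPKM for Hoxd10 in an ocular SMA sample.

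In 9 of 137 libraries from outside the lumbar cord a caudal member reached 1 RPKM. In the ocular SMA sample of mouse 38 at day 2, Hoxd10 was 3.45 RPKM (37.1 reads), Hoxa10 1.91, Hoxc10 1.55 and Hoxa11 1.48. In the facial SMA sample of mouse 206 at day 2, which had 1.44 M reads and the highest Smn1 of any SMA sample, Hoxd9 was 2.87 and Hoxd10 2.73 RPKM (7.13 reads). Hoxd10 was 1.69 RPKM in the hypoglossal sample of the same mouse, and Hoxd13 was 3.46 in the hypoglossal control of mouse 75 at day 5. Hoxb8, the most rostral of the caudal members of cluster B, reached 1 RPKM in 4 vagus samples, with 5.49 in SMA mouse 207 at day 2 and 2.09 in control mouse 253 at day 10. Hoxc13 was 1.95 RPKM in the facial SMA sample of mouse 196 at day 10. Of these samples those of mice 75 and 253 enter the control comparisons, and neither Hoxd13 nor Hoxb8 was among the members tested between populations.

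Within each population, day 10 was compared with day 2 in controls, to ask whether positional levels move as the neurons mature. In lumbar neurons 6 of 25 tested members passed, 2 higher and 4 lower, against 12% of all genes called, 4.76% higher and 7.25% lower. In vagus 0 of 15 tested members passed (background 1.02%, 1 with an unadjusted p under 0.05), in hypoglossal 0 of 12 (5.11%, 0 under 0.05) and in facial 0 of 3 (5.36%, 0 under 0.05). In ocular neurons the 1 tested member passed (8.02%). It entered the test largely through high day 10 controls, as described below, so nothing is read from this share. In the red nucleus no member passed the filter (11.1% of all genes called).

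Among the lumbar members of group 10, Hoxd10 and Hoxa10 fell with age and Hoxc10 did not pass the test. The difference between the genes was not tested. Hoxd10 was 92.8, 57, 58.9 and 67 RPKM in the 4 controls of day 2, 55.5, 60.2, 55.9, 60 and 58.1 at day 5, and 27.3, 37.7, 30 and 23.1 at day 10. Each day 10 value lay below every earlier one. From day 2 to day 10 Hoxd10 fell by 1.19 on the log2 scale (SE 0.28, adjusted p = 0.00408), and its means were 69.0 ± 16.5 (SD, n = 4), 58.0 ± 2.22 (SD, n = 5) and 29.5 ± 6.11 (SD, n = 4).

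Hoxa10 was 37.5, 35.2, 25.2 and 30 RPKM at day 2, 34.1, 29, 41.2, 27.3 and 39.4 at day 5, and 21.6, 16.8, 7.51 and 19.8 at day 10. Again all day 10 values were below the earlier ones. It fell by 0.998 (SE 0.24, adjusted p = 0.00468). Hoxc10, whose values are given above, differed by −0.03 (95% interval −0.41 to 0.35, adjusted p = 0.952), and its ages overlapped throughout.

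Of the members above group 10, Hoxc11 was 6.32, 1.02, 1.64 and 5.49 RPKM at day 2, 0.446, 0.402, 0.177, 0.532 and 0.364 at day 5, and 0, 0.294, 0 and 0 at day 10. Every day 5 value was below every day 2 value. It fell by 1.90 from day 2 to day 10 (SE 0.53, adjusted p = 0.0161), a call lost without control mouse 20 or 244 (adjusted p up to 0.0782). Hoxa11, a lumbosacral and limb gene, was 25.7, 6.41, 11.8 and 29.5, then 23.5, 30.3, 21.5, 23.1 and 42, then 4.73, 6.82, 0 and 5.89 RPKM. Its change from day 2 to day 10, −1.99 (SE 0.77, adjusted p = 0.0943), did not pass, and its exons overlap those of Hoxa11os on the opposite strand, which was 14.95, 22.8 and 4.07 RPKM on average at the 3 ages.

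Hoxa4, a middle member, was 5.45, 3.06, 2.99 and 4.95 RPKM at day 2, 4.71, 0.679, 4.49, 2.4 and 2.46 at day 5, and 0.231, 0.87, 0.659 and 0.171 at day 10. It fell by 1.78 (SE 0.42, adjusted p = 0.00453), with no overlap between day 2 and day 10. The members that rose were low or close to the threshold. Hoxb2 went from 0 to 0.505 RPKM at day 2 to 0.553 to 2.46 at day 10 (log2 difference 0.97, adjusted p = 0.0167, lost when any 1 of control mice 28, 240 and 247 was left out). It passed the filter on low values largely through those day 10 controls. Its rise, also that from day 5 to day 10, is therefore not independent of the filter. Hoxa9 averaged 10.8 RPKM at day 2 and 16.7 at day 10 (0.61, adjusted p = 0.0433), and this call was lost when any 1 of 6 control mice was left out. The 19 tested members that did not pass included Hoxa5 (0.26), Hoxc8 (0.05), Hoxd9 (0.80) and Hoxd11 (−0.92).

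**Figure D4:**
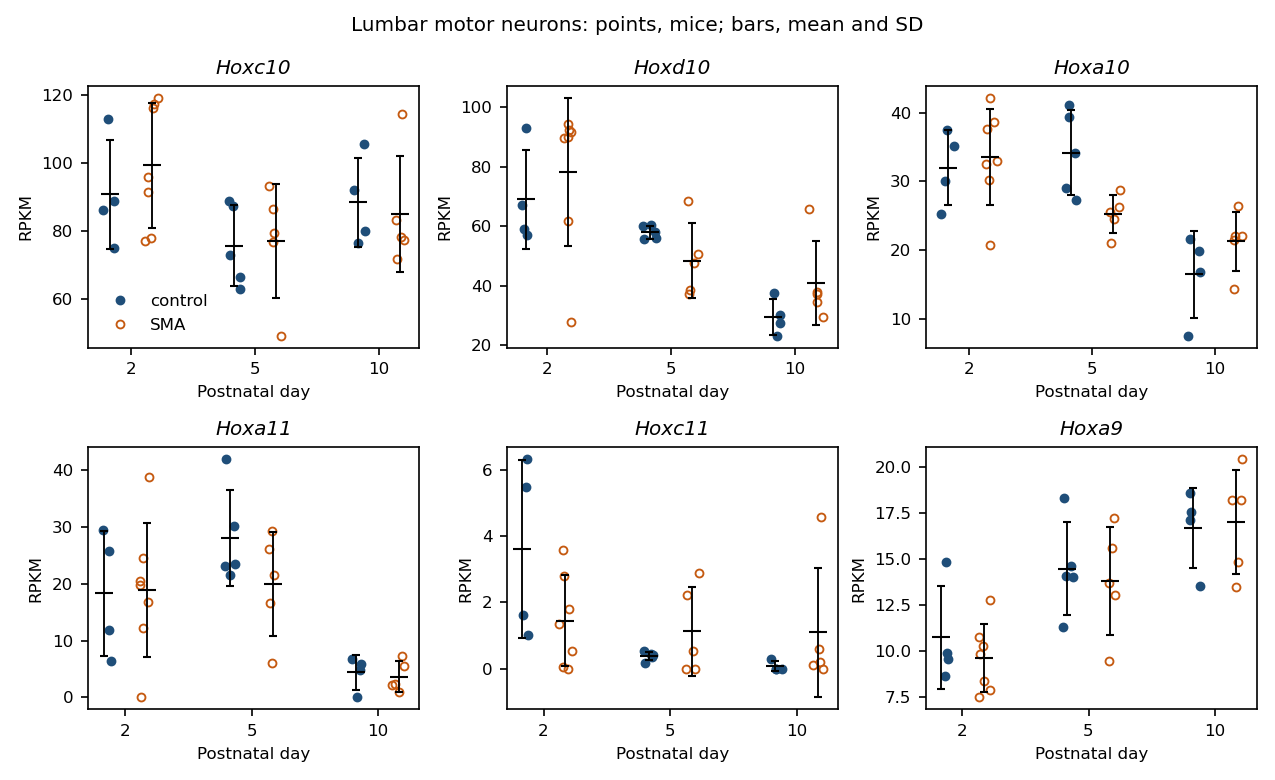
Hoxc10, Hoxd10, Hoxa10, Hoxa11, Hoxc11 and Hoxa9 in lumbar neurons by postnatal day, in RPKM, with each mouse as a point and the mean and SD per genotype. Control Hoxd10 goes from 69.0 to 29.5 RPKM between days 2 and 10 while Hoxc10 stays between 75.7 and 90.7 RPKM.

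The interval was also split at day 5. Between days 5 and 10, 5 lumbar members passed (9.66% of all genes): Hoxa11 by −2.75 (adjusted p = 0.0136, lost without control mouse 253), Hoxa4 by −1.31, Hoxa10 by −1.09, Hoxd10 by −0.97 and Hoxb2 by 1.04. The Hoxa4 call was lost when any 1 of 7 control mice was left out and the Hoxd10 call without mouse 254. Between days 2 and 5, 0 passed by limma (1.51% of all genes), with 2 at an unadjusted p under 0.05. The 2 intervals share the 5 day 5 controls, and per the labels these libraries were mapped together with reads deposited earlier.

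Over all genes the median lumbar change from day 2 to day 10 was −0.104 in controls, and the member median was 0.048. Quantile normalization moved the median of all genes by 0.105, to 0.001, and the share of calls that were higher from 39.6% to 50.9%. Relative to it the changes were −1.12 for Hoxd10, −0.92 for Hoxa10, −1.64 for Hoxa4, −1.85 for Hoxc11, 1.17 for Hoxb2 and 0.69 for Hoxa9, each past the threshold.

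Other values moved with age in the same samples. The summed level of 6 oligodendrocyte markers in lumbar controls was 16.9 to 46.9 RPKM at day 2, 54.6 to 201.6 at day 5 and 537.2 to 1176 at day 10, and all 6 passed as higher, Mbp and Mog among them. The sum of 6 astrocyte markers was 1441 to 1769 RPKM at day 2 and 1039 to 1231 at day 10, with Slc1a3 and Aldoc lower and Aqp4 higher. The 6 motor neuron markers summed to 1095 to 1597 and 1245 to 1829 RPKM, with Chat and Isl2 higher and Isl1 lower. The part of these in the Hox changes was not tested. The library numbers of lumbar controls did not overlap between the ages, so library number and age cannot be told apart. The same held for lumbar SMA samples. It also held between days 2 and 10 for the ocular controls and hypoglossal SMA samples described below.

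In lumbar SMA samples 7 of 25 tested members passed between day 2 and day 10 (18.4% of all genes). Hoxd10 fell by 0.88 (adjusted p = 0.00758), Hoxa10 by 0.63 (adjusted p = 0.0242), Hoxd3 by 0.86 and Hoxa11 by 1.80 (adjusted p = 0.0466). Hoxc5 rose by 1.46, Hoxc6 by 1.09 and Hoxa9 by 0.76. SMA Hoxd10 was 27.8 to 94.4 RPKM at day 2 (7 mice, median 89.9), 47.7, 50.6, 68.3, 38.4 and 37.2 at day 5, and 65.6, 37.2, 34.6, 29.4 and 37.7 at day 10, so the SMA ages overlapped through mouse 206 at day 2 and mouse 196 at day 10. The 6 oligodendrocyte markers passed as higher in these samples too, with sums of 19.4 to 123.2 RPKM at day 2 and 672.6 to 993.2 at day 10. Leaving out single mice in 30 fits ended the Hoxa11 call in 18 of them and the Hoxc6 call in 8. The Hoxa10 call was lost without SMA mouse 55 or 258 and the Hoxd3 call without SMA mouse 199.

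Whether the change with age differed between populations was tested directly in controls. Between lumbar and hypoglossal neurons 3 members passed, against 0.285% of all genes: Hoxd10 at −1.19 (adjusted p = 0.0028), Hoxa11 at −1.99 (adjusted p = 0.0172) and Hoxc11 at −1.90 (adjusted p = 1.03e-06). In hypoglossal controls Hoxd10 and Hoxc11 were 0 in all 12 samples and Hoxa11 was at most 0.0867 RPKM, so no fall could be measured there. The differences therefore restate the lumbar changes and are no separate result. With a pseudocount of 0.1 Hoxc11 alone passed, the Hoxd10 call was lost without control mouse 254, and the Hoxa11 call without mouse 20, 244 or 253. The p-values of these 3 differences come from the limma fit over all controls, which shares 1 estimate of spread over 18 groups. For these genes the groups outside the lumbar cord are at or near 0, which lowers that spread. In the limma fit of lumbar samples alone the fall of Hoxc11 had an adjusted p of 0.0161, and that of Hoxa11 did not pass. Between hypoglossal and facial neurons 0 passed (0.0917%), with 1 at an unadjusted p under 0.05.

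Outside the lumbar cord a single control change passed. Hoxc5 in ocular neurons was 0, 0.0519, 0 and 0 RPKM at day 2, 0, 1.21, 0 and 0.198 at day 5, and 0, 1.55, 3.75 and 1.2 at day 10, a log2 change of 1.17 (SE 0.33, adjusted p = 0.0255). Mouse 247 stayed at 0. Of all ocular samples, only control mouse 30 at day 5 and control mice 252, 253 and 254 at day 10 reached 1 RPKM. Hoxc5 was therefore tested through the samples where it was high, so its rise is not independent of the filter. The call was lost without mouse 252 or 253. Mouse 252 had 2 libraries, and its value of 1.55 is their mean: the members summed to 3.06 RPKM in one, all of it Hoxc5, and to 0.0457 in the other. The summed level of 6 oligodendrocyte markers was 17.3 to 29.2 RPKM in these samples at day 2 and 351.3 to 502.8 at day 10, and its part in the Hoxc5 change was not tested. Day 10 SMA values of Hoxc5 were 0.0641 to 0.58 RPKM. Among SMA samples, 1 of 12 tested hypoglossal members passed (4.31% of all genes), and 0 members passed in the red nucleus (5.06%), ocular (6.66%), facial (6.73%) and vagus (3.31%) samples, where 0, 0, 2 and 2 members had an unadjusted p under 0.05.

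That hypoglossal member was Hoxa5, which rose by 3.16 between day 2 and day 10 in SMA mice (SE 0.48, adjusted p = 0.000181). Its SMA values were 0.646 to 19.0 RPKM at day 2 (6 mice, median 3.97), 7.93, 11.2, 5.72 and 17.1 at day 5, and 75.8, 52.7, 26.1, 36.3 and 36.5 at day 10, with no overlap between days 2 and 10. The summed level of 6 oligodendrocyte markers was 42.5 to 93.3 RPKM in these samples at day 2 and 250.3 to 659.7 at day 10, and 30.9 to 92.6 and 190.6 to 775.5 in hypoglossal controls, and its part in the Hoxa5 change was not tested. The control change was 0.65 (SE 0.57, adjusted p = 0.61), with overlapping ages. The genotypes differed by 2.52 in this change, and the test of a genotype difference varying over the 3 ages gave an unadjusted p of 0.00604 and an adjusted p of 0.503, so it did not pass.

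No Hox gene passed the test between genotypes. Over the 18 comparisons of SMA with control mice, 1 for each population and day, limma called 0 members, and 0.129% of all gene tests. There were 10 member tests with an unadjusted p under 0.05, at most 2 in any 1 comparison. They were 2 of 12 tested hypoglossal members at day 2, against 1587 of 16486 genes. In lumbar neurons at day 10 they were 2 of 25, against 1642 of 16382 genes. Averaged over the 3 ages 0 members passed in any population (0.293% of all gene tests, 4 under 0.05). In the test of whether the genotype difference changed with day 0 passed (0.0344%, 4 under 0.05). The most in 1 population for the mean over the ages was 2 of 12 hypoglossal members, against 1414 of 16486 genes. For the change with day it was 2 of 25 lumbar members, against 1322 of 16382 genes. Nothing is read from these unadjusted counts. The members present in vagus and in hypoglossal neurons were the same by name in both genotypes. In lumbar neurons Hoxa2 was present in controls alone and Hoxc5 in SMA mice alone, a difference in which side of 1 RPKM their means lay. SMA lumbar Hoxc10 averaged 99.3, 77.0 and 85.02 RPKM at days 2, 5 and 10, against 90.7, 75.7 and 88.5 in controls.

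**Figure D5:**
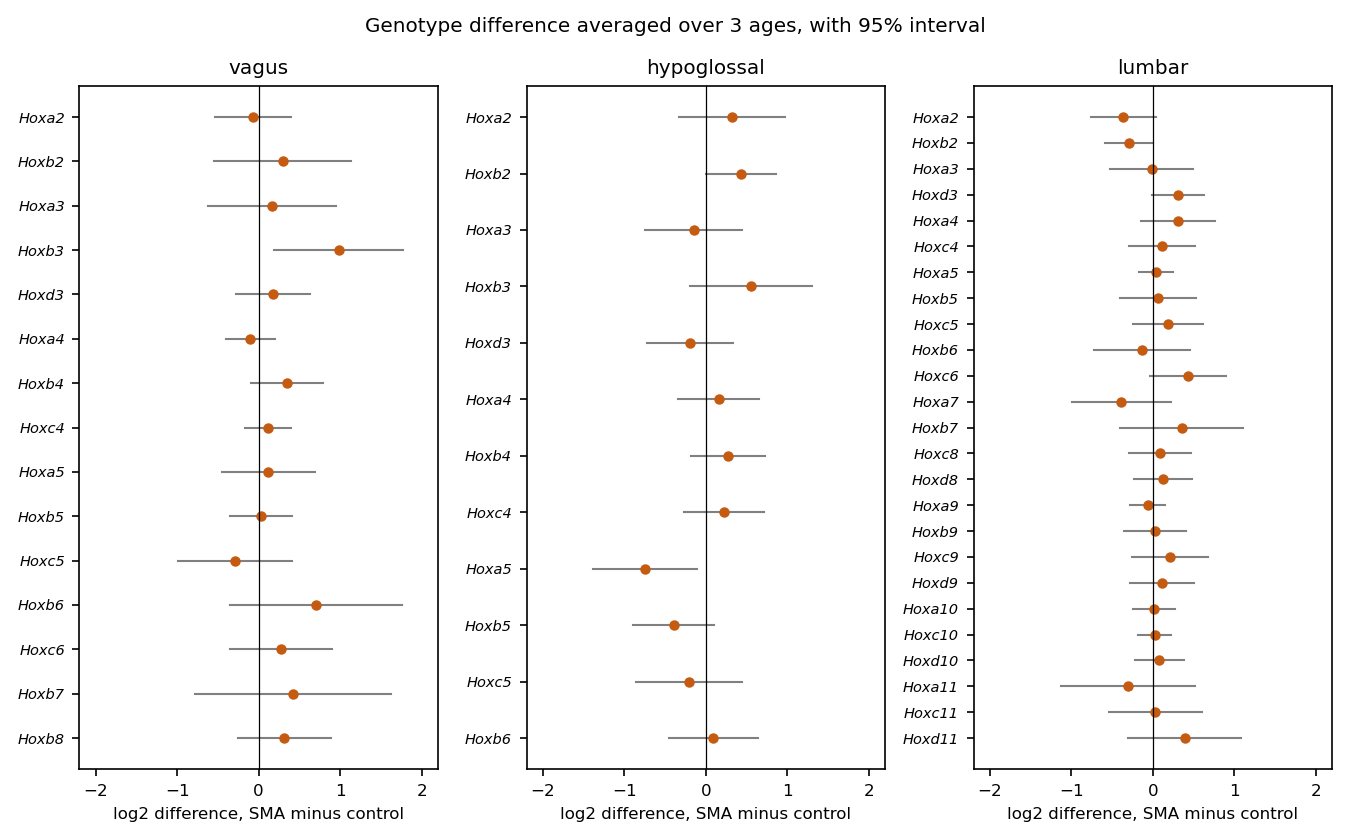
SMA minus control difference of each tested member, mean of the 3 ages on the log2(RPKM + 1) scale, with 95% confidence intervals, for the vagus, hypoglossal and lumbar populations. Intervals are narrow for abundant members, such as lumbar Hoxc10 (−0.18 to 0.22), and wide for low ones, such as vagus Hoxb7 (−0.78 to 1.62).

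Averaging over the ages lets differences of opposite sign cancel, so the following intervals cover the mean of the 3 ages and not the difference at any 1 age. In lumbar neurons the difference averaged over the ages was 0.02 for Hoxc10 (95% interval −0.18 to 0.22), 0.08 for Hoxd10 (−0.22 to 0.38), 0.02 for Hoxa10 (−0.24 to 0.28) and 0.04 for Hoxa5 (−0.17 to 0.25). At single ages lumbar Hoxa10 differed by −0.41 at day 5 (−0.85 to 0.02) and by 0.42 at day 10 (−0.04 to 0.88). In vagus neurons it was 0.03 for Hoxb5 (−0.35 to 0.40), 0.12 for Hoxc4 (−0.16 to 0.39) and 0.12 for Hoxa5 (−0.45 to 0.69). In hypoglossal neurons it was −0.39 for Hoxb5 (−0.89 to 0.10) and −0.75 for Hoxa5 (−1.39 to −0.11, adjusted p = 0.491), the mean of −1.76, −1.24 and 0.76 at days 2, 5 and 10.

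The lowest adjusted p of any member belonged to Hoxb2 in lumbar neurons at day 10. Control values were 2.46, 1.18, 0.553 and 1.72 RPKM and SMA values 0.534, 0.146, 0, 0 and 0.436, without overlap, a difference of −0.98 (SE 0.26, adjusted p = 0.0718). Hoxb2 entered the main fit largely through these controls, the group where it was high, so the difference is not independent of the filter. The gene passed the threshold with no filter (adjusted p = 0.0471), with quantile normalization (0.0467), with array weights (0.0282) and without control mouse 253 (0.0313). Over all its alternatives the adjusted p ran from 0.0282 to 0.258.

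Hoxa5 in hypoglossal neurons at day 2 was lower in SMA mice by −1.76 (adjusted p = 0.221), with the SMA sample of mouse 209, at 19.0 RPKM, inside the control range of 7.69 to 25.9 and the other 5 below it. Hoxb5 there was 10.3 to 49.5 RPKM in 6 SMA mice against 46.9 to 53.8 in 4 controls (−1.15, adjusted p = 0.318). Hoxb3 in vagus neurons at day 5 was 2.1, 7.74 and 5.79 RPKM in SMA mice and 0.93, 0.258, 0.181 and 0 in controls, without overlap (2.13, adjusted p = 0.901). None of these passed.

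Some single genes for PBX, MEIS and PREP proteins, the DNA-binding partners of Hox proteins, also passed the test, and nothing is read from them about the list as a whole. From ocular to facial neurons (13.4% of all genes called), Meis2 was higher by 5.14 and Meis1 by 3.39 on the log2 scale, with Pknox1 also higher. From hypoglossal to lumbar neurons (11.4% of all genes called) Pbx3 (−2.84), Meis2 (−2.62) and Meis1 were lower and Pknox2 was higher. In lumbar controls Meis1 was lower at day 10 than at day 2, by −1.54.

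Factors of motor columns and pools, which act downstream of Hox genes, were tested for 7 of 8 genes between populations. In lumbar against hypoglossal neurons 4 were higher, among them Aldh1a2 (5.43), the retinoic acid synthase of limb-level motor neurons, and Nkx6-1 (1.74), and 2 were lower. Over all genes 11.4% were called there, 4.88% higher and 6.48% lower. From day 2 to day 10 in lumbar controls 2 of 6 tested fell, Nkx6-1 by 2.59 and Aldh1a2 by 2.27, against 12% of all genes called. In SMA mice 5 of 6 fell, against 18.4% of all genes called, and the genotypes were not tested against each other for this count.

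Of the upstream regulators of Hox genes, Rarb, a retinoic acid receptor, fell with age in lumbar controls. Of 18 Polycomb and Trithorax genes, which keep Hox genes silent or active, 1 was higher (Kdm6b) and 1 lower (Rnf2) in that comparison. Over all genes 12% were called there, so nothing is read from this count. Of 10 midbrain factors 7 were tested, and En1 (−4.73), Otx1, En2 and Otx2 were lower in facial than in ocular neurons, while Phox2a was higher. Between these populations 13.4% of all genes were called. Between genotypes, averaged over ages, 1 gene of these 5 lists passed, against 0.293% of all gene tests. It was the upstream regulator Gdf11, lower in lumbar SMA neurons by −0.55 (adjusted p = 0.0452).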

How the data were processed

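Laser-captured neurons were sequenced with Smart-seq2 and Tn5 tagmentation. Per the submitters' processing notes, STAR 2.4.1c was used with the builds mm10 and hg19; the gene counter, annotation and strand setting are not given in the sources used here. The authors deposited RPKM values, scaled to gene length and library size. Depth was recovered from these values with 17340 single-transcript genes of GENCODE M21: in each library 57.1 to 73.2% of their values came out as whole reads within 0.1%. This is not nearly all values, so no count test was run.

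Libraries of 1 mouse and population were averaged (8 samples). With limma 3.58.1 in R 4.3.3 (trend, two-sided, adjusted p under 0.05 within each comparison), log2(RPKM + 1) was fitted per population (6 groups) or over all controls (18 groups), keeping genes of at least 1 RPKM in as many samples as the smallest group. Fits were tested on simulated data. The members, lists and tests were chosen with earlier results of these data known. All 38 members are accounted for. Sample values or ranges are given for the 3 highest members per population and up to 4 with the largest change with age. Up to 4 with the largest difference between neighbouring populations are named. Mouse numbers mark the same animal across populations: deviations of populations of 1 mouse correlated at a median r of 0.0296 (150 pairs), against −0.0071 for other mice of the same day (568 pairs). Alternatives were a pseudocount of 0.1, no filter, quantile normalization, array weights, single libraries, a control-only fit, mouse as a block and leaving out each mouse. Leaving out facial mouse 14 was singled out after seeing the data. Some genes of the other lists are not reported here.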

Additional observations from a re-analysis of the deposited data

Results flagged for a closer look

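Within groups of 4 to 7 mice, 15 of 80 group and gene combinations held a mouse far from the others by the gap between it and its nearest neighbour. The cutoffs give about 1 in 20 for normally distributed values, while these are raw RPKM values. The genes were also chosen by their levels or changes in the same data. Facial Hoxa5, for example, was examined because mouse 14 raised its mean. The 15 of 80 can therefore not be set against that rate. In 4 cases 1 value above 0 stood against others all at 0, where any such value counts as far.

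In the rostral populations some of these values were below the level of 3 reads and others well above it. In ocular controls Hoxc5 was 0.0519 RPKM in mouse 26 at day 2 with the others at 0, and 1.21 in mouse 30 at day 5 with the others at 0 to 0.198. In facial controls Hoxa5 was 48.0 RPKM in mouse 14 at day 2 (others up to 0.0874), 0.125 in mouse 71 at day 5 and 0.0574 in mouse 254 at day 10 (others at 0). Facial Hoxa2 was 7.79 in mouse 14 and facial Hoxb3 14.6 in control mouse 26, both at day 2. In facial SMA mouse 206 at day 2 Hoxa5 was 1.11 RPKM, which is 3 reads, and Hoxb3 7.498.

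In the caudal populations, vagus Hoxc4 was 139.4 RPKM in SMA mouse 207 at day 2 (others up to 103.9), and hypoglossal Hoxa5 was 19.0 in SMA mouse 209 at day 2 (others 0.646 to 5.48). Lumbar SMA mouse 196 at day 10 had Hoxc10 at 114.6 RPKM (others 71.8 to 83.3) and Hoxd10 at 65.6 (others 29.4 to 37.7). Lumbar Hoxc11 at day 10 was 0.294 in control mouse 252 (others at 0) and 4.57 in SMA mouse 199 (others up to 0.581).

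The change from day 2 to day 10 in controls differed between lumbar and hypoglossal neurons, by the test of the difference, for Hoxd10 (−1.19), Hoxa11 (−1.99) and Hoxc11 (−1.90). These genes were at or near 0 in every hypoglossal control, so the differences restate the lumbar changes, and the Hoxd10 and Hoxa11 calls were lost with a pseudocount of 0.1.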

How the results depend on the processing

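No member result changed direction under the alternatives run. Of 69 member results past the threshold, 8 were lost with a pseudocount of 0.1, 5 with each library as its own sample, 4 with no filter, 2 with quantile normalization and 1 with array weights, and 2 of 10 in a control-only fit; leaving out 1 mouse at a time lost 78 of 1326. The mouse as replicate block changed 0 of 49 member calls, and the consensus correlation within a mouse was 0.03388. Among counts of members, the change with age in controls of the 5 populations other than lumbar went from 1 to 0 with quantile normalization and in the control-only fit, lumbar SMA from 7 to 4 with each library as its own sample, and the lumbar against hypoglossal change from 3 to 1 with a pseudocount of 0.1. Genotype calls went from 0 to 1 with no filter, 1 with quantile normalization and 2 with array weights (Hoxb2 lumbar and Hoxc5 ocular, both at day 10). Both genes had entered the main fits largely through day 10 controls. At 0.5 RPKM 1 ocular and 8 facial members were present, and at 5 RPKM 0 facial, 7 vagus, 4 hypoglossal and 11 lumbar.

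Without 1 mouse at a time, member counts were 4 to 7 for lumbar control age, 4 to 8 for lumbar SMA age, 0 to 1 for the other controls, 3 to 5 from day 5 to 10, 0 to 1 for genotype and 2 to 3 for the lumbar against hypoglossal change. Between populations they were 1 to 3 (facial against ocular), 10 to 11 (vagus against facial), 10 to 11 (hypoglossal against vagus) and 20 to 22 (lumbar against hypoglossal). Present members were 1 to 5 in facial, 12 to 13 in vagus and 20 to 21 in lumbar controls. At the median depth members under about 0.3 RPKM are not told apart from 0, and in the shallowest libraries members under 1 RPKM or more.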

Other observations

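Noncoding genes of the Hox clusters also differed along the axis. Of 17 listed, 9 were in the table and 2 passed the filter between populations. Hoxb3os averaged 0.0221 RPKM in ocular, 9.24 ± 4.04 in facial (SD, n = 13), 47.5 ± 16.5 in vagus (SD, n = 11), 19.2 ± 7.23 in hypoglossal (SD, n = 12) and 8.48 ± 2.96 in lumbar controls (SD, n = 13), and each of these 4 steps passed the test. Hoxa11os was higher in lumbar than in hypoglossal neurons by 3.45. An entry named HOTAIRM1_5, chosen after its values were seen, was 0 in 9 of 11 red nucleus controls (highest 23.2 RPKM) and in the 12 ocular controls, and averaged 23.2 ± 12.9 RPKM in facial (SD, n = 13), 101.5 ± 29.4 in vagus (SD, n = 11), 65.4 ± 24.6 in hypoglossal (SD, n = 12) and 26.8 ± 6.03 in lumbar controls (SD, n = 13). What its row counts is not given in the sources used here.

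The vagus SMA sample of mouse 207 at day 2 had the highest summed Hox level of any sample, 1160 RPKM, with Hoxa5 at 490.3.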
